A study of Mus musculus with 50 samples.

Results

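The metabotropic glutamate receptors Grm2, Grm3, Grm4, Grm5, Grm7 and Grm8 were examined in mouse hippocampus on 10 Agilent 2-color arrays, as 6 of 17546 genes that could be named there. A probe was assigned to a receptor by a RefSeq accession or by a gene symbol in parentheses in its description, which gave 6 probes of 4 genes (Grm3, Grm4, Grm7 and Grm8) among the 41174 probes that are no controls. Grm2 and Grm5 are named on this array only in words, and with those descriptions 13 probes of all 6 genes were followed. Of the 13, 1 was designed on a clone listed as a synonym of Grm2, with its coordinates in the opposite order to the 2 Grm2 probes, and it was kept apart from the gene as the Grm2 clone. None of the 33012 ABI identifiers matched any of 57 accessions of these genes, so the receptors are described on Agilent alone.

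The RNA came from both hippocampi of 5 wild-type (WT) mice, all male C57/BL6j, and of 5 transgenic (TG) males on a C57/BL6j background that over-express δC-DCLK-short, a splice variant of doublecortin-like kinase-1 whose kinase is constitutively active. The age of the mice and the promoter of the transgene are not given in the sources used here. Each array held 1 WT and 1 TG mouse, and each mouse lay on 2 arrays, once in Cy3 and once in Cy5 and with a different partner each time. The arrays therefore share mice, and a test over 10 arrays treats as separate what came from 10 animals.

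Metabotropic glutamate receptors are G protein-coupled receptors that tune synapses more slowly than the glutamate-gated ion channels. Group I, with Grm5, couples through Gq to phospholipase C and calcium release and lies mostly on the postsynaptic side. Group II, with Grm2 and Grm3, and group III, with Grm4, Grm7 and Grm8, couple through Gi/o, lower cAMP and mostly restrain transmitter release, while Grm3 is also found on astrocytes.

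All 13 probes were present on all 10 arrays, as were 33790 of all 41174 probes. Present means that both channels were brighter than 95% of the 314 negative controls. That limit lay between 61.8 and 80.2 in Cy3 and between 40.0 and 45.7 in Cy5 on the scale of raw intensity. Over the 20 channels, the median raw intensity was 584 for the Grm5 probe A_51_P465591, with a range of 226 to 1513, and 539 for the Grm5 probe A_51_P333441, with a range of 92.3 to 945. The medians of the other 11 probes lay between 59.5 for the Grm2 clone and 193 for Grm3. The Grm2 clone and the Grm7 probe A_52_P551544 were not well above the local background on every array. No spot of the 13 probes was saturated. The intensity of a probe also depends on its sequence, and no order of the receptors was read from it. Markers of dentate granule cells (7 of 7 measured) and of CA pyramidal cells (8 of 8) were present on all arrays, so that defining markers of hippocampal neurons were not absent. Markers of choroid plexus (5 of 5 measured) and of thalamus (7 of 8) were present by the same rule, so presence alone does not name the tissue.

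Log2 ratios of TG over WT are given as the mean ± SE of n = 10 arrays unless another number is stated. The direction of every ratio is that of the labels and carries a doubt. The study describes Gabra2 as lower in TG mice. In the arrays as labelled its log2 ratio of TG over WT was 1.26 ± 0.23, in the limma fit, in the opposite direction. The transgene's own gene Dclk1, measured by 4 probes, had a log2 ratio of -0.07 ± 0.03 and an FDR of 0.273 in the limma fit, and its probes were not matched to the over-expressed variant. If the 5 arrays with WT in Cy3 were swapped with the 5 arrays with TG in Cy3, the sign of every ratio of TG over WT reported here would turn. Deviations of the 2 channels assigned to 1 mouse correlated over present probes with a median r of 0.210 as labelled and of 0.304 after that swap, and among the 8 mice whose channels differ between the assignments the median was 0.176 and 0.304. These r values are a description, over channels that share arrays and dyes, and the labels were kept.

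At an FDR of 10%, 1 of the 13 receptor probes was differentially expressed between TG and WT in the limma fit of the 10 log ratios, and it was lower in TG as labelled. Over all probes 7.41% passed the same limit, 3.76% as lower and 3.66% as higher, so that 1 of 13 is close to the background, and 5 of 13 had an unadjusted p under 0.05, against 18.9%. With the probes of a gene averaged, 0 of 6 receptor genes passed, against 8.19% of all 34540 genes and unnamed probes, and 1 of 6 had an unadjusted p under 0.05 in limma, against 19.1%. On a single averaged value per mouse, 0 of 13 probes passed, against 0.0583% of all probes, and 1 of 13 had an unadjusted p under 0.05, against 8.03%. The mouse levels of WT and TG overlapped for all 13 probes, and over all probes 2.08% did not overlap.

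**Figure D1:**
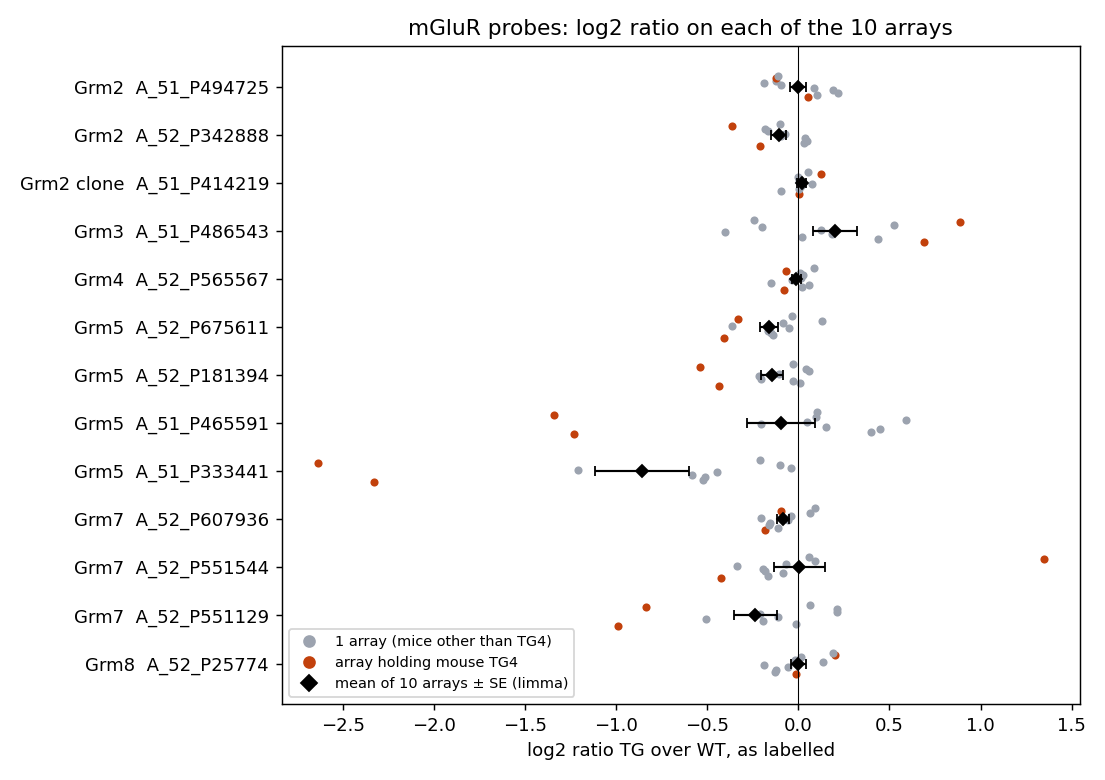
Log2 ratio of TG over WT as labelled (horizontal axis) of each receptor probe (vertical axis) on each of the 10 arrays, with the mean and its SE from limma as a diamond. The 2 arrays that hold the mouse labelled TG4, in orange, lie far below the others for the Grm5 probes A_51_P465591 and A_51_P333441 and the Grm7 probe A_52_P551129, and above them for Grm3.

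Grm5, the group I receptor, was measured by 4 probes designed on 1 transcript. By the coordinates in the files, whose genome build is not stated, A_52_P675611 lies at chr7:81576408-81576467 and A_52_P181394 starts 143 bases further on. A_51_P465591 lies at chr7:82108661-82108720 and A_51_P333441 at chr7:82109555-82109614. The probes thus form 2 pairs, with 532253 bases between the starts of A_52_P675611 and A_51_P465591 and 894 bases between the starts of the last 2. Exons, introns and UTRs at these places were not looked up, since no annotation of that build was used here.

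The probe that passed was A_51_P333441. Its log2 signal was 8.87, 9.32, 9.40, 9.55 and 9.13 in the mice WT1, WT3, WT4, WT5 and WT6. It was 8.65, 8.95, 9.01, 6.66 and 8.70 in the mice TG1 to TG5. All TG mice but TG2 and TG3 lay below the lowest WT mouse, WT1, and TG4 lay far below every other mouse. The mean was 9.25 ± 0.26 in WT and 8.40 ± 0.98 in TG (SD, n = 5 mice each).

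On the arrays the log2 ratio of A_51_P333441 was negative in 10 of 10 cases, from -2.64 through a median of -0.52 to -0.04, while 1.13% of all probes were negative on all 10 arrays. The mean was -0.86 ± 0.26, which is 1.81-fold lower in TG as labelled, with an FDR of 0.0928 in limma. The means of the 2 dye orientations were alike, -0.88 with WT in Cy3 and -0.84 with TG in Cy3 (n = 5 arrays each). Each of these means included 1 array of TG4. The other arrays lay between -0.58 and -0.44 with WT in Cy3 and between -1.21 and -0.04 with TG in Cy3. The study's hybridization design lists the arrays with WT in Cy3 first, so array order and dye orientation cannot be told apart. The 2 lowest arrays, at -2.33 and -2.64, were those of TG4. Without that mouse the log2 ratio was -0.45 ± 0.11 (SE, n = 8 arrays), with a limma FDR of 0.0715 where 4.9% of all probes passed. On a single value per mouse the difference was -0.86 ± 0.40 (SE, n = 5 mice each) with an unadjusted limma p of 0.0577 and an FDR of 0.654, and without TG4 it was -0.43 with an FDR of 0.352 in the same fit. The call was close to the limit, since it was lost on leaving out any single array other than TG2/WT1 and TG5/WT6 (8 of 10 arrays) and any mouse other than TG4 (9 of 10 mice), with FDR values up to 0.243. After the swap of arrays the difference per mouse was 0.86 with an FDR of 0.731.

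The other Grm5 probes did not pass. A_52_P675611 had the value just outside the limit, with a log2 ratio of -0.16 ± 0.05, an FDR of 0.1005 in limma and a negative ratio on 9 of 10 arrays. Its log2 signal was 6.36, 6.38, 6.33, 6.56 and 6.36 in the WT mice in the same order and 6.35, 6.23, 6.39, 6.06 and 6.16 in TG1 to TG5. The groups overlapped, and TG4 and TG5 were the lowest. The neighbouring probe A_52_P181394 had a log2 ratio of -0.15 ± 0.06 (limma FDR 0.206), and without TG4 this became -0.06 with an FDR of 0.520. On 1 array the spot of A_52_P181394 carries an outlier flag, and without flagged spots its log2 ratio was -0.14 with an FDR of 0.289. A_51_P465591 was positive on 7 of 10 arrays with a median of 0.10, but its mean was -0.09 ± 0.19 (limma FDR 0.873). The 2 arrays of TG4 were at -1.23 and -1.34, the other 8 lay between -0.21 and 0.59, and without TG4 the mean was 0.20 ± 0.08 (SE, n = 8 arrays) with an FDR of 0.218. The sign of A_51_P465591 thus rested on 1 mouse. Averaged over its 4 probes, Grm5 had a log2 ratio of -0.32 ± 0.13 (limma FDR 0.215), and without TG4 it was -0.10 with an FDR of 0.395.

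The probes of Grm5 differed from each other in their ratios. A_51_P333441 was lower than A_51_P465591 on all 10 arrays, by 0.76 ± 0.13 on the log2 scale, with an adjusted p of 0.0098 in a two-sided exact sign-flip permutation test over arrays, Benjamini-Hochberg adjusted over the 10 probe pairs of Grm2, Grm5 and Grm7. The unadjusted p of 0.00195 is the smallest that 10 arrays allow. Against A_52_P181394 it was lower by 0.71 ± 0.23 (adjusted p = 0.0098, exact permutation test) and against A_52_P675611 by 0.70 ± 0.25 (adjusted p = 0.013, exact permutation test). Without TG4 these 3 differences were 0.66, 0.39 and 0.34, with unadjusted exact permutation p of 0.0078, 0.0078 and 0.0156, of which 0.0078 is the smallest that 8 arrays allow. For the 3 Grm5 pairs without A_51_P333441 the adjusted p was 0.84 in the same exact permutation test. Without TG4, A_52_P675611 minus A_51_P465591 was -0.31 and A_52_P181394 minus A_51_P465591 was -0.26, with unadjusted exact permutation p of 0.0469 and 0.0078. Because arrays share mice, the array differences are not independent, and the effect of this on these p values was not tested. The probes also differ in brightness, with median raw intensities of 158 for A_52_P181394 and 78.6 for A_52_P675611 against 539 for A_51_P333441. Background was not subtracted, and the part of brightness in the differences between probes was not tested. The difference between A_51_P333441 and A_51_P465591 concerns probes that start within 1 kb of each other, and which transcripts of Grm5 each of them detects was not tested.

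**Figure D2:**
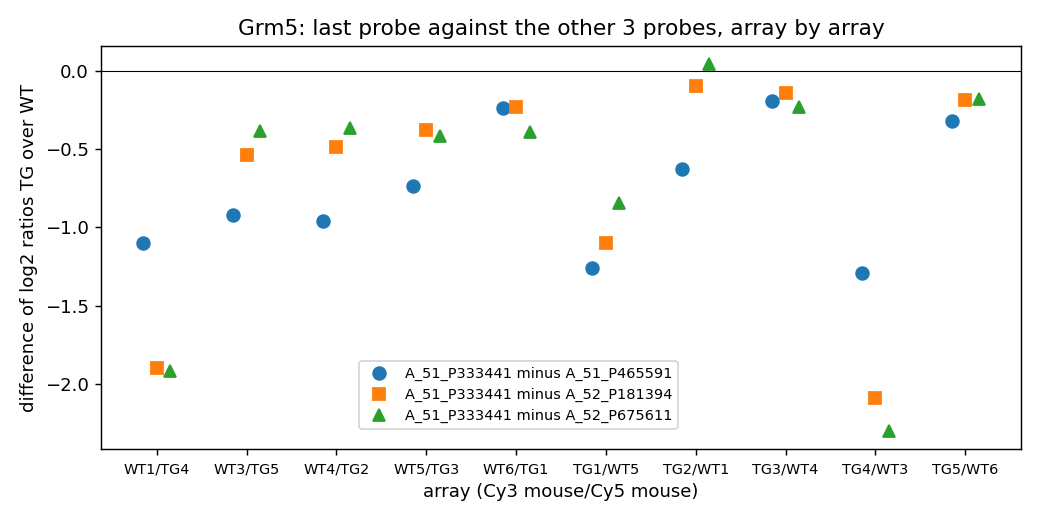
Difference between the log2 ratio of the Grm5 probe A_51_P333441 and that of each of the other 3 Grm5 probes (vertical axis) on the 10 arrays (horizontal axis, Cy3 mouse before Cy5 mouse). The difference from A_51_P465591 is below 0 on every array, between -1.29 and -0.19, whereas the differences from the other 2 probes are largest on the 2 arrays of TG4.

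Grm3, a group II receptor of neurons and astrocytes, was measured by 1 probe, A_51_P486543, at chr5:9495982-9496041 in the coordinates of the files. Its log2 signal was 7.66, 7.72, 7.42, 7.43 and 7.89 in WT1, WT3, WT4, WT5 and WT6 and 7.60, 7.48, 7.72, 8.55 and 7.78 in TG1 to TG5. TG4 was the highest of all mice, and the other 4 TG mice lay inside the range of WT. The log2 ratio was 0.20 ± 0.12 (limma FDR 0.413), and without TG4 it was 0.06 ± 0.10 with an FDR of 0.897. On the array TG2/WT1 its spot carries an outlier flag, and without flagged spots the log2 ratio was 0.25 with an FDR of 0.327.

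Grm2, the other group II receptor, gave different values on its 2 probes, which start 7937 bases apart on chromosome 9. A_52_P342888 had a log2 ratio of -0.11 ± 0.04 (limma FDR 0.163) and was negative on 7 of 10 arrays, between -0.36 and 0.05. Without TG4, which gave the lowest array, it was -0.06 with an FDR of 0.439. A_51_P494725, described only as similar to Grm2, averaged 0.0008 ± 0.044 (limma FDR 0.997). This average hid a dye pattern, since the ratio was positive on all 5 arrays with WT in Cy3, with a mean of 0.13, and negative on all 5 with TG in Cy3, with a mean of -0.13. The dye coefficient of A_51_P494725 had an FDR of 0.0051 in limma. The 2 Grm2 probes differed by 0.11 ± 0.03 with an adjusted p of 0.0391 in the exact sign-flip permutation test, and without TG4 by 0.07 with an unadjusted exact permutation p of 0.0625. The Grm2 clone had a log2 ratio of 0.02 ± 0.02 (limma FDR 0.769).

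Grm7, a presynaptic group III receptor, was measured by 3 probes along chromosome 6, of which A_52_P607936 and A_52_P551129 span 13621 and 70178 bases in the coordinates of the files. A_52_P551129 had log2 signals of 7.50, 7.65, 7.57, 7.89 and 7.64 in the WT mice and 7.65, 7.53, 7.60, 6.63 and 7.64 in TG1 to TG5. TG4 alone lay below the range of the other 9 mice, 7.50 to 7.89. The log2 ratio was -0.24 ± 0.12 (limma FDR 0.308), and -0.07 with an FDR of 0.788 without TG4. A_52_P607936 had a ratio of -0.09 ± 0.03 (limma FDR 0.176), negative on 8 of 10 arrays and between -0.21 and 0.09. A_52_P551544 averaged 0.004 ± 0.14 (limma FDR 0.994), and its single high array, 1.35 on TG4/WT3, is a spot with an outlier flag. Without that spot the log2 ratio of A_52_P551544 was -0.14 with an FDR of 0.161. The 3 Grm7 pairs did not pass the exact permutation test, with adjusted p from 0.52 to 0.95 and differences of -0.09 ± 0.15, 0.15 ± 0.12 and 0.24 ± 0.23.

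Grm4 and Grm8, the other group III receptors, were each measured by 1 probe and had the log2 ratios nearest to 0 among the 6 genes. Grm4, at A_52_P565567, had a log2 ratio of -0.01 ± 0.03 (limma FDR 0.889), and its array values ran from -0.15 to 0.09. Grm8, at A_52_P25774, had a log2 ratio of 0.0005 ± 0.042 (limma FDR 0.998). As for the Grm2 probe above, Grm8 moved with the dye, with means of -0.10 with WT in Cy3 and 0.10 with TG in Cy3 (n = 5 arrays each) and an FDR of the dye coefficient of 0.0329.

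**Figure D3:**
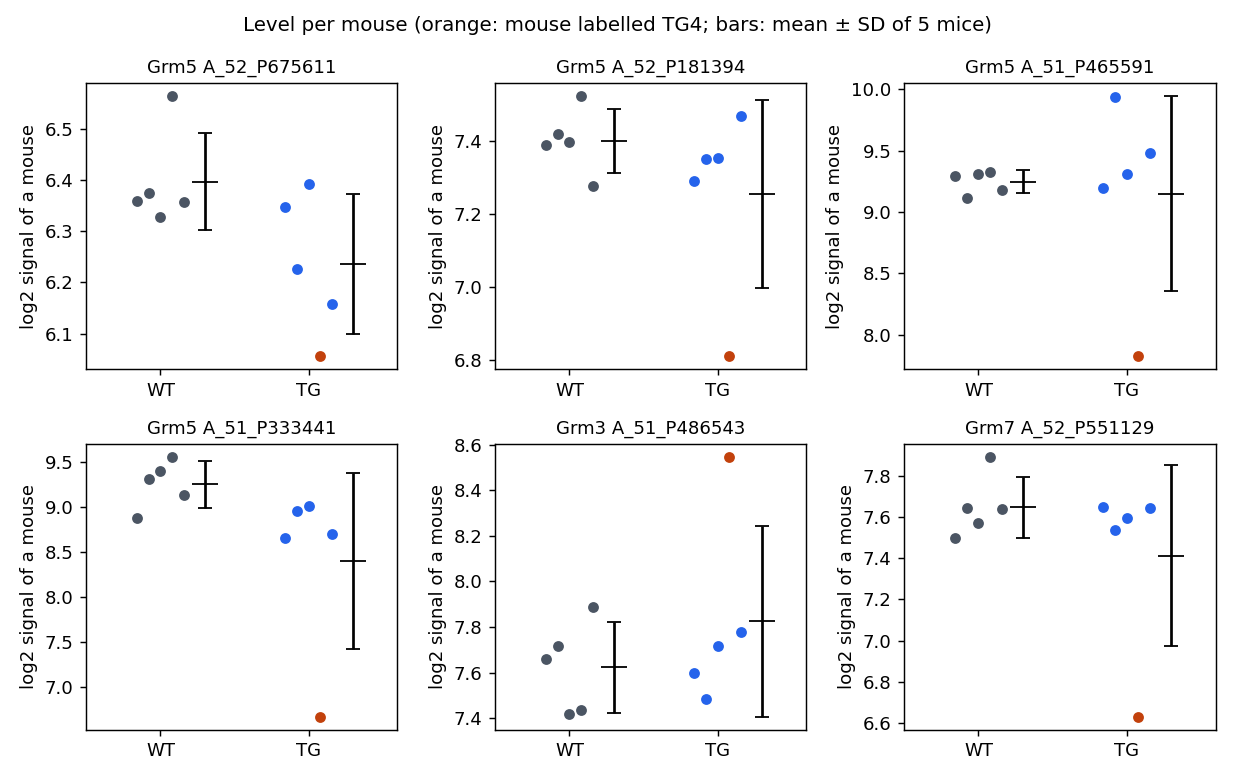
Log2 signal per mouse (vertical axis, mean of the Cy3 and Cy5 channel) in the 5 WT and 5 TG mice for the 4 Grm5 probes, Grm3 and the Grm7 probe A_52_P551129, with the mean and SD of each group as bars. TG4, in orange, is the lowest mouse for all 4 Grm5 probes and for Grm7 and the highest for Grm3.

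The mouse labelled TG4 therefore carried much of the spread in the receptor family. It lay below all 9 other mice for 7 of the 13 probes, namely all 4 of Grm5, the Grm7 probes A_52_P607936 and A_52_P551129 and the Grm2 probe A_52_P342888. It lay above them for Grm3 and, through the spot with an outlier flag, for the Grm7 probe A_52_P551544. Of all 33790 present probes 39% had TG4 at the lowest or highest place, 19.2% at the lowest and 19.7% at the highest. The receptors' 9 of 13, with 7 below and 2 above, are to be read against those shares. Several of these probes belong to 1 gene and are not separate members. The distances from the mean of the other 9 mice were -2.40 on the log2 scale for A_51_P333441, -1.52 for A_51_P465591, -0.57 for A_52_P181394 and -0.29 for A_52_P675611, the probes of Grm5 in order of size. They were -0.999 for the Grm7 probe A_52_P551129 and 0.91 for Grm3. The Grm5 probes with the smaller distances, A_52_P181394 and A_52_P675611, were also the dimmer ones, and the part of brightness was not tested. A mouse at least 1 log2 unit below all the others was found for 562 present probes (1.66%) with TG4, and for 0 probes with any other mouse.

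Both channels of TG4 correlated with r = 0.726 in their deviations over present probes, the highest of the 10 mice, and these are the same channels in both assignments of the arrays. After the swap of arrays this animal would be the WT mouse WT5. Oligodendrocyte markers moved with it. Their summed log2 level was 12.5 in TG4 and 13.2 to 13.7 in the other 9 mice, and 4 of 6 lay below all other mice and 1 above, with Mbp, a main protein of myelin, at -1.41 from the mean of the others. The summed astrocyte level of TG4, 14.2, lay within the 13.6 to 14.4 of the others, and 3 of 8 astrocyte markers lay above all other mice and 1 below. The summed interneuron level, 13.3, lay above the 12.7 to 13.1 of the others, although of the 6 markers only 1 lay above all other mice and 1 lay below. In the same mouse the summed level of markers of the adjoining thalamus, 10.3, lay below the 10.4 to 10.6 of the others. Of the 8 thalamus markers only 2 lay below all other mice and 0 above, where over all genes 17.1% lay below and 18.3% above. Markers of dentate granule cells, CA pyramidal cells, microglia and choroid plexus had summed levels in TG4 of 11.7, 12.8, 10.8 and 9.18, each within the range of the other mice. The part of these in the receptor values was not tested. In tissue RNA, fewer cells of a type and less RNA per cell cannot be told apart.

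The genes around the receptors were read from 4 lists, of which 55 of 63 genes were measured. At an FDR of 10%, 3 of 55 passed in the gene-level limma fit, 1 as higher and 2 as lower, against 8.19% of all genes, 4.05% as higher and 4.13% as lower. On a single value per mouse 0 of 55 passed, against 0.084% of all genes, and 4 of 55 had an unadjusted p under 0.05 in limma, against 8.2%. The median log2 ratio of the 55 was -0.03, where that of all genes was 0.003.

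Among 15 measured effectors of group I receptors, 1 was lower in TG as labelled. Gnaq, the G protein subunit that couples Grm5 to phospholipase C, had a log2 ratio of -0.21 ± 0.06 (limma FDR 0.0755), negative on 9 of 10 arrays. Without TG4 it was -0.18 with an FDR of 0.218. The channel gene Trpc1 followed with -0.09 ± 0.03 and an FDR of 0.142, and Itpr1, the calcium release channel opened by inositol trisphosphate, with -0.10 ± 0.04 and an FDR of 0.196 in limma. Homer1, the scaffold that ties group I receptors to Itpr1, had -0.08 ± 0.04 with an FDR of 0.287 in limma, and without TG4 -0.03 with an FDR of 0.767. The median of the list was -0.03.

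Among 13 measured effectors of group II and III receptors, 0 passed, and 2 had an unadjusted p under 0.05 in limma, where 19.1% of all genes had. Gnai3, an inhibitory G protein subunit, came closest with a log2 ratio of -0.16 ± 0.05 and an FDR of 0.102, ahead of the adenylyl cyclase gene Adcy9 with -0.15 ± 0.05 and an FDR of 0.151 in limma. Gnao1, the most abundant G protein subunit of brain, had 0.12 ± 0.07 and an FDR of 0.366, and without TG4 0.04 with an FDR of 0.853. The median of the list was -0.05.

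Among 17 measured partners and regulators of the receptors, 1 was higher in TG as labelled. Necab2, a calcium-binding protein that interacts with Grm5, had a log2 ratio of 0.22 ± 0.04 (limma FDR 0.0147) and was positive on 10 of 10 arrays, between 0.06 and 0.42. Without TG4 it was 0.18 with an FDR of 0.0362, and Necab2 was the only one of the 55 genes to pass without that mouse, against 4.75% of all genes. On a single value per mouse its FDR was 0.308. Elfn1, a postsynaptic adhesion protein that recruits Grm7, had 0.19 ± 0.06 with an FDR of 0.118, and Rgs14, a regulator of G protein signalling, 0.12 ± 0.06 with an FDR of 0.263 in limma. Without TG4 these were 0.12 with an FDR of 0.290 for Elfn1 and 0.05 with an FDR of 0.655 for Rgs14. Pick1, which binds the tail of Grm7, had 0.004 ± 0.038 and an FDR of 0.977. The median of the list was 0.004.

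Among 10 measured genes of the handling of glutamate and of N-acetylaspartylglutamate (NAAG), a peptide agonist of Grm3, 1 was lower in TG as labelled. Folh1, the peptidase that splits NAAG, had a log2 ratio of -0.10 ± 0.03 (limma FDR 0.0513), negative on 9 of 10 arrays, and without TG4 it was -0.09 with an FDR of 0.153. On a single value per mouse its FDR was 0.870. The 1 probe of Folh1 was dim, with log2 levels of 6.34 in TG4 and 6.37 to 6.64 in the other mice. Glul, the glutamine synthetase of astrocytes, had 0.30 ± 0.15 with an FDR of 0.300, and Slc1a2, the main glutamate transporter of astrocytes, 0.06 ± 0.04 with an FDR of 0.462 in limma. The median of the list was -0.03.

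**Figure D4:**
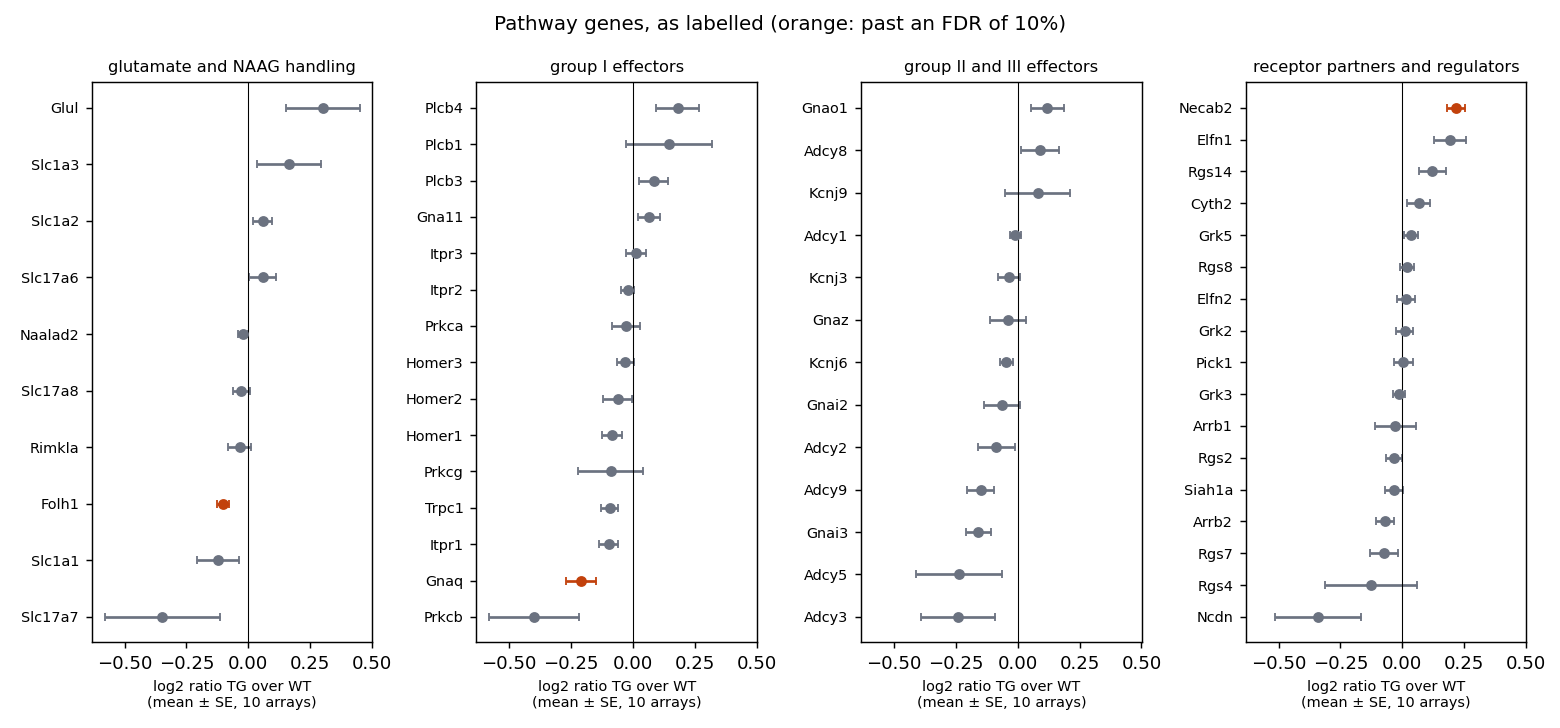
Log2 ratio of TG over WT as labelled (horizontal axis, mean and SE over 10 arrays) of the 55 measured pathway genes in the 4 lists (vertical axis). Folh1, Gnaq and Necab2, in orange, are the genes past an FDR of 10%.

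In TG4, 17 of the 55 pathway genes lay below all other mice and 13 above, where over all genes 17.1% lay below and 18.3% above. Chosen after their values were seen, the genes farthest down were Slc17a7, the vesicular glutamate transporter of hippocampal principal cells, at -2.07 from the mean of the other 9 mice, Prkcb, a protein kinase C that group I signalling activates, at -1.62, Ncdn, a neuronal protein that binds Grm5, at -1.49, and Adcy5 at -1.42. On the arrays, Slc17a7 had a log2 ratio of -0.35 ± 0.23 (limma FDR 0.494), and without TG4 of 0.04.

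The genes whose log2 ratios over the 10 arrays were most like those of each receptor's brightest probe differed between receptors. For Grm5 (A_51_P465591) they included LOC547246 (r = 0.982) and Actg2 (r = 0.978), and for Grm7 (A_52_P551129) they were Uri1 (r = 0.989), Csnk1e (r = 0.986) and Galnt1 (r = 0.984). These 5 genes had negative ratios on both arrays of TG4. Over the other 8 arrays r was 0.845 and 0.803 for the genes of Grm5 and 0.964, 0.979 and 0.957 for those of Grm7. For Grm3 they were Pip4k2b (r = 0.920), Adgrg1 (r = 0.910) and Hmgcs1 (r = 0.909), with positive ratios on both arrays of TG4, and over the other 8 arrays r was 0.841, 0.811 and 0.869.

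For Grm2 (A_51_P494725) the most alike were Ugt2b35 (r = 0.988), Olfr237 (r = 0.987) and Olfr1299 (r = 0.986), and for Grm8 Ecm1 (r = 0.967), Proser3 (r = 0.966) and Nmur1 (r = 0.965), the receptors whose ratios moved with the dye. For Grm4 they were Mllt1 (r = 0.922), M1ap (r = 0.921) and Nkx2-6 (r = 0.904). These r values are the highest among the present probes over 10 arrays that share mice and dyes, and are given as a description.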

How the data were processed

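Hippocampal RNA of 5 WT and 5 TG mice was hybridized to 10 Agilent 2-color arrays. The authors scanned them with Feature Extraction 8.5.1.1, per the file headers, and the deposited intensity values are the mean pixel brightness of a spot per dye, with no normalization. The deposited log10 ratio of Cy5 over Cy3 was background-corrected and dye-normalized by that software and served as an alternative. The coordinates of the probes come from the files.

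The background was not subtracted. Dye bias was removed here by loess on each array, with control spots at weight 0, and the log2 ratio of TG over WT was fitted by limma 3.58.1 in R 4.3.3 (intercept, empirical Bayes, Benjamini-Hochberg over all probes, limit FDR 0.1). Probes of a gene were averaged for the gene-level fit. For a single value per mouse, channels were scaled between arrays (Aquantile) and the Cy3 and Cy5 values of a mouse were averaged. Probe pairs were compared by exact sign-flip permutation over arrays. No sequences of the probes were used here. The number of arrays and mice limits the precision.

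Mice with the same number in both genotypes are different animals that never shared an array, so the numbers pair no mice. Arrays of the same mouse were treated as a block in alternatives. The members and lists were chosen with earlier results of these data known. Named were all members, the 3 genes with the smallest p of each list, Homer1, Gnaq, Pick1 and Slc1a2, the 3 genes most like each member, and Dclk1 and Gabra2. Some single genes are not reported here. On simulated data with 200 changed probes among 41174, the fit over 10 arrays recovered 76% of 1.25-fold and 92% of 1.5-fold changes, and the fit per mouse 52% and 78%. False calls numbered 12 and 28. The simulated noise was independent for each array or mouse, without shared mice, a dye effect or an outlying animal. These shares therefore do not give the power of the present design. AFF, LGTC and Illumina data were not analysed here, and the ABI signals name no receptor.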

Additional observations from a re-analysis of the deposited data

Results flagged for a closer look

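In 39 groups of arrays or mice tested for a sample far from the rest, 8 samples were found. For independent groups chance gives about 1 in 20, but these groups reuse the same mice and are not independent. The share of such samples over all probes was not computed. Of the 8 samples, 6 belong to the mouse labelled TG4, which was the lowest or highest mouse for 39% of all present probes. Its log2 signal was 8.55 for Grm3 (A_51_P486543), 6.81 and 6.66 for the Grm5 probes A_52_P181394 and A_51_P333441, and 6.63 for the Grm7 probe A_52_P551129, each far from the other 4 TG mice. For the Grm7 probe A_52_P551544 the level was 7.12 and the log2 ratio on the array TG4/WT3 was 1.35, both through a spot with an outlier flag in the scanner's output. The other samples were WT5, at 6.56 among the WT mice for the Grm5 probe A_52_P675611, and TG5, at 5.87 among the TG mice for the Grm2 clone A_51_P414219.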

How the results depend on the processing

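The count of receptor probes past the limit, 1 of 13, became 0 with median centring, the scanner's log ratio, a dye term, an FDR of 0.05, 1 averaged ratio per TG mouse or per WT mouse. It became 2 among probes present or well above background on all arrays and with a trended robust prior, when A_52_P675611 of Grm5 passed too. With mice as a random replicate block it was 2 (TG mouse), 5 (WT mouse) and 5 (both). However, arrays of 1 mouse always differ in dye, and the estimated correlations were -0.140 (TG mouse), -0.248 (WT mouse) and -0.149 (both). With a dye term added, an alternative chosen after seeing the data, the correlation was 0.0616 and the replicate block of both mice gave 0. Leaving out 1 array or 1 mouse gave 0 to 2. Of 6 genes, 0 passed except 1 with the WT mouse as block, and 0 in all leave-outs. Per mouse 0 of 13 passed in every alternative run, the fixed replicate block included.

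Pathway genes past the limit, 3, became 1 with median centring and with FDR 0.05, and 5 with probes well above background or a dye term. With the replicate block they became 6 (TG mouse), 7 (WT mouse) and 8 (both). Leave-outs gave 1 to 6. The count of different probe pairs was 4 with normexp, the scanner's ratio and each of 10 single arrays left out. With both arrays of TG4 left out, chosen after seeing the data, it was 5, the Grm2 pair being lost (adjusted p = 0.104, exact permutation test) and 2 Grm5 pairs gained.

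Ratios near 0 turned sign. Grm8 was -0.00704 with normexp, -0.00573 with median centring, -0.00848 with median pixels and -0.0156 with the scanner's ratio, and -0.0225 to 0.0217 in leave-outs. Grm2 A_51_P494725 was -0.0099 with median centring and -0.0235 to 0.0216 in leave-outs. The Grm2 clone was -0.066 with median centring. Grm4 was 0.0266 with the scanner's ratio and -0.0278 to 0.00361 in leave-outs. Grm7 A_52_P551544 was -0.0584 with median centring, -0.33 with the scanner's ratio, -0.14 without flagged spots and -0.14 to 0.0718 in leave-outs. Grm5 A_51_P465591 was -0.25 to 0.20 in leave-outs. A_51_P333441 stayed between -1.07 and -0.45 in all alternatives over array log ratios, with an FDR from 0.0354 to 0.276. The causes were not tested. The ABI alternatives were not run.

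Most receptor probes were dim, and 2 of 13 were not well above the local background on every array, which limits what their ratios can show.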
